A study of Mus musculus with 24 samples.

Results

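DEAD-box and DEAH-box RNA helicases are enzymes that use ATP to unwind RNA or to remodel complexes of RNA and protein. Their genes were taken as every gene whose symbol starts with Ddx or Dhx and goes on with a digit, without Ddx58, Ddx3x and Ddx3y. This gave 50 of the 18740 genes listed under either stimulus, 34 Ddx and 16 Dhx genes, and all 50 were listed under both stimuli. The family takes its names from a short run of amino acids in the shared ATP-binding core. Many members act in the nucleolus on precursors of ribosomal RNA, and others act in the spliceosome, in mRNA export, in translation or in mRNA decay. A few are induced by interferon and take part in the sensing of viral RNA, a known function of macrophages.

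The study asked how dopamine (DA) acts on macrophages through the receptor DRD5. Bone marrow-derived macrophages (BMDMs) came from 10-week-old C57BL/6 mice that were WT or lacked Drd5 (DRD5-/-); the labels give the tissue as bone, while a growth note names colons. Cells were stimulated for 12 h with LPS at 100 ng/ml and IFN-γ at 50 ng/ml (M1), or with IL-4 and IL-13 at 10 ng/ml each (M2). Each stimulus was applied with or without DA, at 20 µM by a figure legend of the study, which gave 8 groups of 3 libraries and 24 libraries in all. Levels were deposited as FPKM, fragments scaled to transcript length and to the mapped fragments of the library. FPKM summed over all genes to at most 494459 in an M1 library and at least 482310 in an M2 library. Read counts were not used here, so the depth behind each value is unknown.

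The M1 and M2 libraries were listed in separate tables with different gene sets, so they were tested apart, and levels under the 2 stimuli are set side by side without a test. Under each stimulus, genes entered the tests when 3 or more of 12 libraries reached 1 FPKM. Of the 50 helicase genes, 46 were tested in M1 and 48 in M2. Ddx25 and Ddx43, both germ line genes, were too low under either stimulus, and Ddx4 and Ddx11 were too low in M1. Ddx4 passed in M2 with 3 libraries, those of DA-treated WT cells, so its test rests on a gene that could enter only by being high there. A gene was called changed at an adjusted p under 0.001 by limma and a change of at least 1.2-fold on the scale of log2(FPKM + 1), which understates the fold of genes at low levels. The p-values measure the spread between these libraries, because the labels do not say whether libraries came from separate mice or cultures.

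The libraries carried macrophage markers throughout. All 9 genes of a macrophage list had a mean of at least 1 FPKM under both stimuli, led by Lyz2 at 4938 FPKM in M1 and 6396 FPKM in M2. Nos2 was the most abundant gene of an M1 list in the M1 libraries, at 1887 FPKM, and Mrc1 that of an M2 list in the M2 libraries, at 345 FPKM. The targeted gene gave no check of the genotypes: Drd5 was not listed in M1, and in M2 it was at 0 in every library except untreated WT replicate 2, at 0.06 FPKM, and DA-treated WT replicate 2, at 0.03 FPKM.

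Ddx5, an RNA helicase that serves as a cofactor in transcription and in splicing, was the most abundant member under both stimuli, with a mean of 136 FPKM over the 12 M1 libraries and 249 FPKM over the 12 M2 libraries. In M1 it was followed by Dhx58 at 112 FPKM, Ddx17 at 78.1 FPKM, Ddx24 at 53.8 FPKM and Ddx39b at 41.9 FPKM. In M2 the order was Ddx39b at 80.2 FPKM, Ddx17 at 68.3 FPKM, Dhx15 at 63.6 FPKM and Ddx21 at 40.0 FPKM. Ddx17 is the paralog of Ddx5, Ddx39b is part of the mRNA export machinery and Dhx15 disassembles the spliceosome. At the low end Ddx25 was at 0 in 11 M1 and 10 M2 libraries, and Ddx43 in 5 M1 and 6 M2 libraries. Among untreated WT cells, 37 of the 50 genes were higher in all 3 M2 libraries than in all 3 M1 libraries, 6 were lower and 7 overlapped. Of all 17109 genes listed under both stimuli 49.2% were higher in M2, 22.2% lower and 28.5% overlapped, and of the 9620 tested under both 61.4% were higher, against 78.3% of 46 helicase genes. Among genes tested under both stimuli most were thus higher in M2, and the helicase count is a description of levels. The lower ones included both interferon-induced sensors, Dhx58 with 114 FPKM in M1 and 12.7 FPKM in M2, and Ddx60 with 28.7 FPKM in M1 and 1.59 FPKM in M2 (means of 3 libraries, not tested).

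The members were spread over 14 chromosomes and all 50 were matched to RefSeq genes by gene ID, with Ddx39 now named Ddx39a. Ddx19a (chr8:110974991-110997823) and Ddx19b (chr8:111003186-111031751) are neighbours and near-identical paralogs, so reads assigned to either are uncertain. RefSeq promoter windows of 250 bases before a transcript start, build GRCm38.p6, were at hand for 44 members. Of these windows 24 lay just before the gene as a whole, 17 lay partly inside it and 3 (Ddx4, Ddx50 and Ddx56) lay fully inside it, before a start further in. The 4 shown all lay just before the gene, and their genes carry the changes described further on. They were chosen after their values were seen. Ddx21 (chr10:62602299-62602548, minus strand) rose with DA in M2 and fell in M1, Ddx39b (chr17:35241496-35241745, plus strand) was the most abundant gene to rise in M2, Ddx24 (chr12:103425848-103426097, minus strand) fell in M1, and Ddx59 (chr1:136415021-136415270, plus strand) fell in M2. Capitals mark TGACG or its reverse complement CGTCA, the shorter form of the cAMP response element, chosen because DRD5 is a receptor that raises cAMP.
Ddx21: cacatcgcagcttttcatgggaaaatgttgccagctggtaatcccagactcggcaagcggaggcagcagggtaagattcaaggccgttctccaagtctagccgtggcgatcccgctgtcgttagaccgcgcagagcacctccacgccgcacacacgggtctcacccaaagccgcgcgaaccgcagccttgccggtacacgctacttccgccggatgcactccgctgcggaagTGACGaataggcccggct
Ddx39b: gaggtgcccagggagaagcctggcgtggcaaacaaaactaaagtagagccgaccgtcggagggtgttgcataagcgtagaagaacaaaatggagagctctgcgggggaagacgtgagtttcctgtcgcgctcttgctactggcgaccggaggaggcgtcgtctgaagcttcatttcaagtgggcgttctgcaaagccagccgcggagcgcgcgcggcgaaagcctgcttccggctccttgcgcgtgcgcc
Ddx24: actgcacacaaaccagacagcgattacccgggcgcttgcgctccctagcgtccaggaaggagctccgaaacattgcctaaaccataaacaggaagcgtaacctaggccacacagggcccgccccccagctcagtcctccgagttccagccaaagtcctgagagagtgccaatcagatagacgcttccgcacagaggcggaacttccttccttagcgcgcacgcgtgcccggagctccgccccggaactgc
Ddx59: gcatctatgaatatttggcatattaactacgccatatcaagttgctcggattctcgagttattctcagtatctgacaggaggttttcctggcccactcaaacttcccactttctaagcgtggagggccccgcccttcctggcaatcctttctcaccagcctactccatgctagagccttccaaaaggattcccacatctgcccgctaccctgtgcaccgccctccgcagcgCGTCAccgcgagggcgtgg

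The marked letters occurred once in the Ddx21 window, with the first base 18 bases before the start, and once in that of Ddx59, 19 bases before the start. They were in neither the Ddx39b nor the Ddx24 window. On either strand, TGACG was found in 22 of the 44 helicase windows (50.0%), in 17.9% of all 27025 windows and in 28.3% of the 8685 windows of genes tested in M2. It was in 6 of the 17 windows of members that rose with DA in M2, without Ddx4, whose test is not read as a result. That is a smaller share than the 50.0% over all 44 helicase windows, so TGACG was not more frequent in the risers than in the family. The full element TGACGTCA, whose matches all hold TGACG as well, was in 4 of 44 helicase windows (9.09%), in 1.62% of all windows and in 2.83% of those of tested genes. The E-box CACGTG was in 4 helicase windows (9.09%), in 6.05% of all windows and in 8.83% of those of tested genes, so its share was near that of tested genes. GAAANNGAA, as in interferon response elements, was in 6 helicase windows (13.6%), in 7.16% of all windows and in 6.32% of those of tested genes. The median GC content was 60.8% in helicase windows and 52.0% in all windows. It was not computed for windows of tested genes, so the difference is not read as a trait of the family. These matches are descriptions of the letters and say nothing of a factor bound there.

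In M2 macrophages of WT mice, DA raised more helicase genes than it lowered. Of the 48 tested members, 24 changed (50.0%, against 46.3% of all 10735 tested genes), a share near that of all genes. By direction, 20 were higher (41.7%, against 25.9% of all tested genes) and 4 were lower (8.33%, against 20.4%). These counts include Ddx4, which passed the filter only through its high group. Without Ddx4, 19 of 47 members were higher and 4 lower. The median log2 change was 0.19 over the members and 0.03 over all tested genes, and the split was 18 higher and 4 lower after median-of-ratios scaling and 17 higher and 5 lower after quantile normalization. Summed over the 50 genes, helicase FPKM was 1159 ± 17.2 in untreated WT and 1287 ± 6.32 in DA-treated WT libraries (SD, n = 3). RNA came from whole cultures, so fewer cells of a type and less RNA per cell cannot be told apart in these or later comparisons.

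The largest group of risers in M2 act in ribosome biogenesis. Ddx21, a nucleolar helicase that acts on ribosomal RNA transcription and processing, had 32.7, 34.0 and 35.4 FPKM in untreated WT libraries and 64.6, 62.3 and 62.8 FPKM with DA. In DRD5-/- cells it had 29.9, 30.6 and 32.1 FPKM untreated and 33.0, 31.2 and 31.3 FPKM with DA. The 3 DA-treated WT libraries stood apart, each above every other M2 library. Its log2 change with DA in WT was 0.88 ± 0.036 (SE, n = 3 per group, limma adjusted p = 3.25e-11). Ddx56, needed for the large ribosomal subunit, went from 18.6, 18.3 and 19.4 FPKM to 33.4, 33.1 and 32.2 FPKM in WT, and Ddx27, which acts in the same pathway, from 17.2, 16.4 and 16.04 FPKM to 28.4, 30.3 and 29.4 FPKM. Neither gene's groups overlapped, and all 3 DA-treated WT libraries were above the 3 untreated ones. Their log2 changes were 0.78 ± 0.040 and 0.79 ± 0.039 (SE, n = 3 per group, limma adjusted p = 3.1e-10 and 1.98e-10). In all, 9 of the 16 tested ribosome biogenesis helicases rose and none fell, against 25.9% and 20.4% of all tested genes, with a median log2 change of 0.34. After either other scaling 8 of the 16 rose and none fell. The other risers were Dhx37 (0.57), Ddx18 (0.56), Ddx31 (0.50), Ddx10 (0.48), Ddx49 (0.39) and Ddx55 (0.29, lost with either other scaling), all log2 changes. Ddx24 (0.01), Ddx52 (−0.01), Ddx47 (−0.06) and Ddx50 (−0.13) were among the 7 that did not pass.

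Helicases of mRNA export were the next group to rise in M2. Ddx39, a close relative of Ddx39b in the export of spliced mRNA, had 24.01, 23.9 and 23.2 FPKM in untreated WT and 38.5, 39.0 and 39.0 FPKM with DA. Ddx39b went from 73.4, 74.3 and 72.6 FPKM to 98.2, 97.6 and 100.3 FPKM. For both genes every DA-treated WT library was above every untreated one, with log2 changes of 0.69 ± 0.049 and 0.42 ± 0.025 (SE, n = 3 per group, limma adjusted p = 1.34e-08 and 1.7e-09). Ddx19b also passed (0.31), though not after either other scaling, and its neighbour Ddx19a did not (0.21), so 3 of 4 export helicases rose, against 25.9% of all tested genes. In the spliceosome list 2 of 9 rose, a share no higher than the 25.9% of all tested genes. They were Dhx15 (0.39) and Ddx46 (0.39), which helps to set up the branch site. Dhx38, which acts at the second step of splicing, had a log2 change of −0.20 and did not pass, but was called lower after quantile normalization.

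Among transcription and small-RNA cofactors 2 of 6 rose in M2, near the 25.9% of all tested genes in so short a list. These were Ddx1 (0.41), which takes part in tRNA splicing, and Dhx9 (0.40), which unwinds RNA and DNA. The most abundant pair of that list moved little, with a log2 change of −0.17 for Ddx5 and −0.07 for Ddx17, neither past the threshold. Dhx30, a helicase of mitochondrial ribosome assembly, rose by 0.31, a call that ended with quantile normalization, and its mitochondrial partner Ddx28 had −0.08. Dhx29, which helps the small ribosomal subunit to scan structured mRNA leaders, rose by 0.42.

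Ddx11 was a member of low abundance that rose. A DNA helicase of sister chromatid cohesion, it had 1.06, 1.28 and 1.31 FPKM in untreated WT and 2.2, 2.24 and 2.36 FPKM with DA. The groups were apart, with a log2 change of 0.56, or 0.85 with a pseudocount of 0.1. Ddx4, known as Vasa in germ cells, had 0.18, 0.48 and 0.35 FPKM untreated and 1.1, 1.29 and 1.2 FPKM with DA. In DRD5-/- libraries Ddx4 was at 0.20 FPKM or less. Its test is not read as a result, since it passed the filter only through the DA-treated WT libraries, and without it 19 of 47 members rose and 4 fell.

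The 4 members that fell with DA in WT M2 cells include 2 of the 3 in the translation and mRNA decay list, against 20.4% of all tested genes, while the remaining one, Dhx29, rose. Ddx6, a helicase of P-bodies that represses translation and promotes decapping, had 37.6, 37.5 and 40.6 FPKM in untreated WT libraries and 24.3, 24.7 and 25.1 FPKM with DA. Dhx34, a factor of nonsense-mediated decay, had 23.8, 23.7 and 22.4 FPKM untreated and 13.8, 14.2 and 14.8 FPKM with DA. All DA-treated WT libraries were below all untreated ones for both, and the log2 changes were −0.62 ± 0.037 and −0.67 ± 0.043 (SE, n = 3 per group, limma adjusted p = 1.85e-09 and 3.98e-09). Dhx40, whose function is little known, had the largest fall, from 8.83, 8.71 and 9.47 FPKM to 4.40, 4.49 and 4.29 FPKM. Ddx59 had 6.56, 6.36 and 5.58 FPKM untreated and 4.05, 3.32 and 3.72 FPKM with DA. Neither gene's groups overlapped, and the log2 changes were −0.89 ± 0.043 and −0.61 ± 0.081 (SE, n = 3 per group, limma adjusted p = 1.59e-10 and 9.52e-06).

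**Figure D1:**
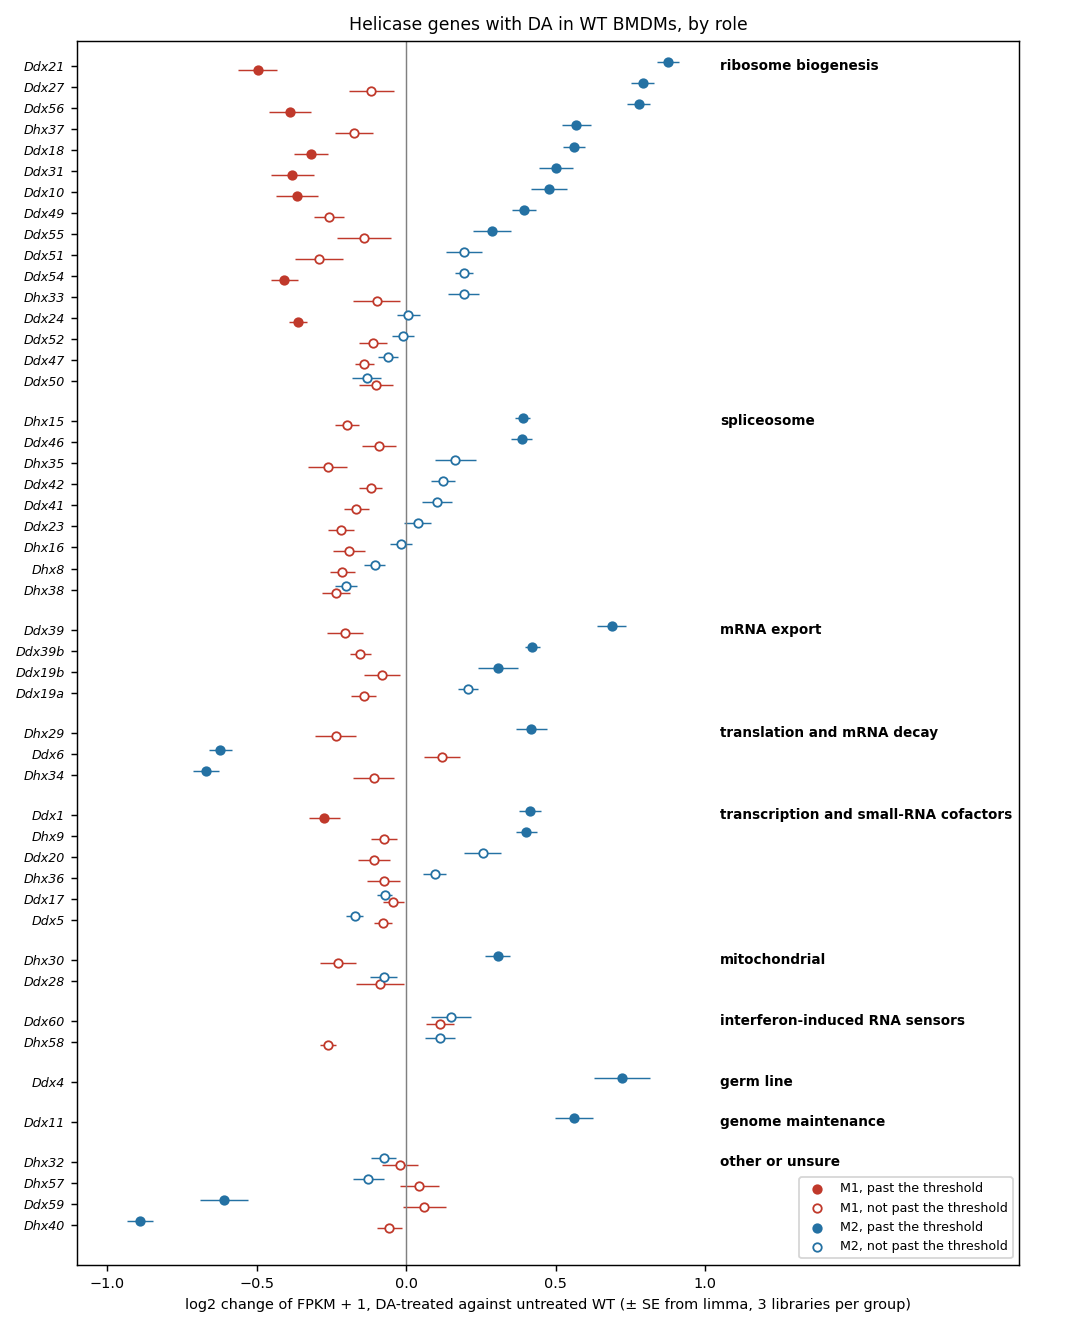
Log2 change of FPKM + 1 with DA in WT cells for each tested helicase gene, by role, with points for the estimate, lines for the SE from limma (3 libraries per group) and filled points for genes past the threshold. In M2 (blue) 20 genes were higher and 4 lower, against 18 and 4 with median-of-ratios scaling and 17 and 5 with quantile normalization. The M2 counts include Ddx4, which passed the filter only through its high group, and without it 19 were higher and 4 lower. In M1 (red) 8 were lower and none higher, against 3 lower with either other scaling.

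Several gene lists outside the family moved with the same groups. Summed FPKM of a 20-gene proliferation list was 361 ± 1.66 in untreated WT M2 cells and 799.7 ± 12.2 with DA, and 382 ± 8.94 and 401 ± 7.33 in DRD5-/- cells (SD, n = 3). The 9 macrophage genes summed to 11089 ± 91.1 FPKM and 8676 ± 26.6 FPKM, with Lyz2 on top and none at 0. Of the 9 genes 7 had a lower mean with DA, among them Lyz2 (6799 to 4753 FPKM), Csf1r (985 to 697 FPKM), Cd14 (155 to 57.4 FPKM), Fcgr1 (35.9 to 30.6 FPKM) and Mertk (9.82 to 4.78 FPKM), while the means of Itgam (132 to 198 FPKM) and Spi1 (291 to 310.0 FPKM) were higher with DA. Of 4 colon epithelium markers only Cdh1 reached a mean of 1 FPKM, and the list summed to 2.23 ± 0.023 FPKM untreated and 17.0 ± 0.22 FPKM with DA in WT. That rise was the rise of Cdh1, while Epcam, Krt20 and Vil1 were at most 0.05 FPKM in any M2 library. The 5 fibroblast genes, led by Dcn at 52.6 FPKM, summed to 126 ± 1.21 FPKM in untreated WT, 103 ± 0.625 FPKM with DA, 79.5 ± 1.1 FPKM in untreated DRD5-/- and 86.7 ± 0.669 FPKM in DA-treated DRD5-/- cells. That list went both ways with DA in WT, as the mean of Dcn went from 75.1 to 43.3 FPKM and that of Pdgfra from 3.39 to 1.47 FPKM. The collagen genes were higher with DA, with means from 19.0 to 23.4 FPKM for Col1a1, from 21.5 to 25.9 FPKM for Col1a2 and from 6.97 to 8.79 FPKM for Col3a1. The part of these lists in the helicase changes was not tested.

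In M1 macrophages of WT mice, DA lowered helicase genes of ribosome biogenesis. Of the 46 tested members 8 changed (17.4%, against 14.3% of all 10040 tested genes), all of them lower (17.4%, against 9.6% of all tested genes). With either other scaling 3 of the 46 members were lower, a share near that of all tested genes. That share was 5.37% with median-of-ratios scaling and 5.84% with quantile normalization. None was higher by limma (0.0%, against 4.73%), and 29 members had an unadjusted p under 0.05 in either direction, as did 52.3% of all tested genes. The median log2 change was −0.15 over the members and −0.07 over all tested genes, and 42 of 46 members and 65.7% of all tested genes were below 0. After either other scaling 39 of 46 members were below 0, against 50.8% of all genes with median-of-ratios and 52.0% with quantile normalization. Summed helicase FPKM was 846 ± 3.14 in untreated and 759 ± 4.33 in DA-treated WT libraries (SD, n = 3).

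Ddx24, a nucleolar helicase and the fourth most abundant member in M1, had 59.0, 58.3 and 58.4 FPKM in untreated WT and 43.3, 46.2 and 46.7 FPKM with DA. In DRD5-/- cells it had 57.6, 55.9 and 56.5 FPKM untreated and 54.4, 54.2 and 55.3 FPKM with DA. The 3 DA-treated WT libraries were below the other 9. Ddx21 had 4.52, 4.57 and 5.05 FPKM untreated and 2.85, 3.17 and 3.12 FPKM with DA, and Ddx54, another nucleolar helicase, 16.8, 18.2 and 17.0 FPKM and 12.6, 13.1 and 12.8 FPKM. Again no DA-treated WT library reached an untreated one. The log2 changes were −0.36 ± 0.031 for Ddx24, −0.50 ± 0.064 for Ddx21 and −0.41 ± 0.044 for Ddx54 (SE, n = 3 per group, limma adjusted p = 3e-07, 2.03e-05 and 3.66e-06).

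The other 5 calls in M1 were Ddx56 (−0.39), Ddx31 (−0.38), Ddx10 (−0.37), Ddx18 (−0.32) and Ddx1 (−0.27), all log2 changes with adjusted p between 0.000358 and 0.00076. Of these only Ddx1 is outside ribosome biogenesis, so 7 of the 16 ribosome biogenesis helicases fell and none rose, against 9.6% and 4.73% of all tested genes, with a median of −0.28. These 5 calls were lost with either other scaling, with no expression filter and with the compared groups alone, which all kept Ddx21, Ddx24 and Ddx54 and left 3 of 16, against 5.37% of all tested genes lower with median-of-ratios scaling and 5.84% with quantile normalization. With median-of-ratios scaling the log2 changes of the 5 lost genes were −0.33, −0.32, −0.31, −0.26 and −0.21 in the same order. The folds thus shrank somewhat, and the limma adjusted p passed 0.001, to between 0.00165 and 0.00668. Ddx18 and Ddx1 were then also under 1.2-fold. With no filter or the compared groups alone the log2 changes stayed the same, and the limma adjusted p was above 0.001. The scalings also turned the split over all changed genes from 33.0% higher to 55.6% with median-of-ratios and 52.2% with quantile normalization. Without untreated WT replicate 2 the count of 8 became 3, without DA-treated WT replicate 1 it was 4, and without DA-treated WT replicate 2 or 3 or untreated WT replicate 1 it was 5. Such counts can include genes that were not called with all libraries. The 9 spliceosome helicases, the 4 of mRNA export, the 3 of translation and mRNA decay and the 2 mitochondrial ones had no call by limma in M1. Their median log2 changes were −0.20, −0.15, −0.11 and −0.16. The lowest spliceosome value was that of Dhx35 (−0.26), the lowest in export that of Ddx39 (−0.20) and the highest in translation and decay that of Ddx6 (0.12).

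Markers of other cells also differed among the M1 groups. The 8-gene neutrophil list had 5 genes at a mean of at least 1 FPKM, with S100a8 on top at 24.9 FPKM and Elane at 0 throughout. Its sum was 44.7 ± 5.45 FPKM in untreated WT and 63.6 ± 7.47 FPKM in DA-treated WT libraries (SD, n = 3). In DRD5-/- libraries the sum was 17.3 ± 1.72 FPKM untreated and 19.8 ± 1.42 FPKM with DA (SD, n = 3). Most of the higher sum with DA in WT came from S100a8, whose mean went from 24.99 to 41.7 FPKM. The WT means of S100a9 (13.6 to 14.9 FPKM) and Camp (2.56 to 3.28 FPKM) rose less. Those of Ltf (2.23 FPKM) and Cxcr2 (1.21 FPKM) were the same with and without DA to the digits given. The macrophage list summed to 7821 ± 66.2 FPKM and 8486 ± 48.2 FPKM in untreated and DA-treated WT cells, though the means of Adgre1 (601 to 558 FPKM) and Spi1 (287 to 271 FPKM) were lower with DA, and the proliferation list to 252 ± 4.36 FPKM and 299.8 ± 8.77 FPKM. Of the 16 proliferation genes tested in M1, 1 rose and 15 did not pass. Their median log2 change was −0.05, against −0.07 over all tested genes. The part of these lists in the M1 results was not tested.

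Set side by side, 6 helicase genes were called in opposite directions with DA under the 2 stimuli. Of all tested genes 9.6% fell in M1 and 25.9% rose in M2. The share of all genes called in opposite directions is not given here, so this count is not a result about the family. Ddx1, Ddx10, Ddx18, Ddx21, Ddx31 and Ddx56 fell in M1 and rose in M2, but after either other scaling only Ddx21 kept its M1 call. Ddx24 and Ddx54 fell in M1 and had log2 changes of 0.01 and 0.19 in M2, not past the threshold, while 12 other genes rose in M2 alone and Dhx34, Dhx40, Ddx6 and Ddx59 fell in M2 alone. Of the 46 genes tested under both stimuli, 30 had a log2 change below 0 in M1 and above 0 in M2. Another 12 were below 0 in both, 3 were above 0 in M1 and below 0 in M2, and 1 was above 0 in both. Of all tested genes 65.7% were below 0 in M1 and 46.9% in M2. With median-of-ratios scaling these shares were 50.8% and 48.8%, and with quantile normalization 52.0% and 50.9%. No joint share over all genes is given, so the sign counts are a description. No test was made between stimuli.

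**Figure D2:**
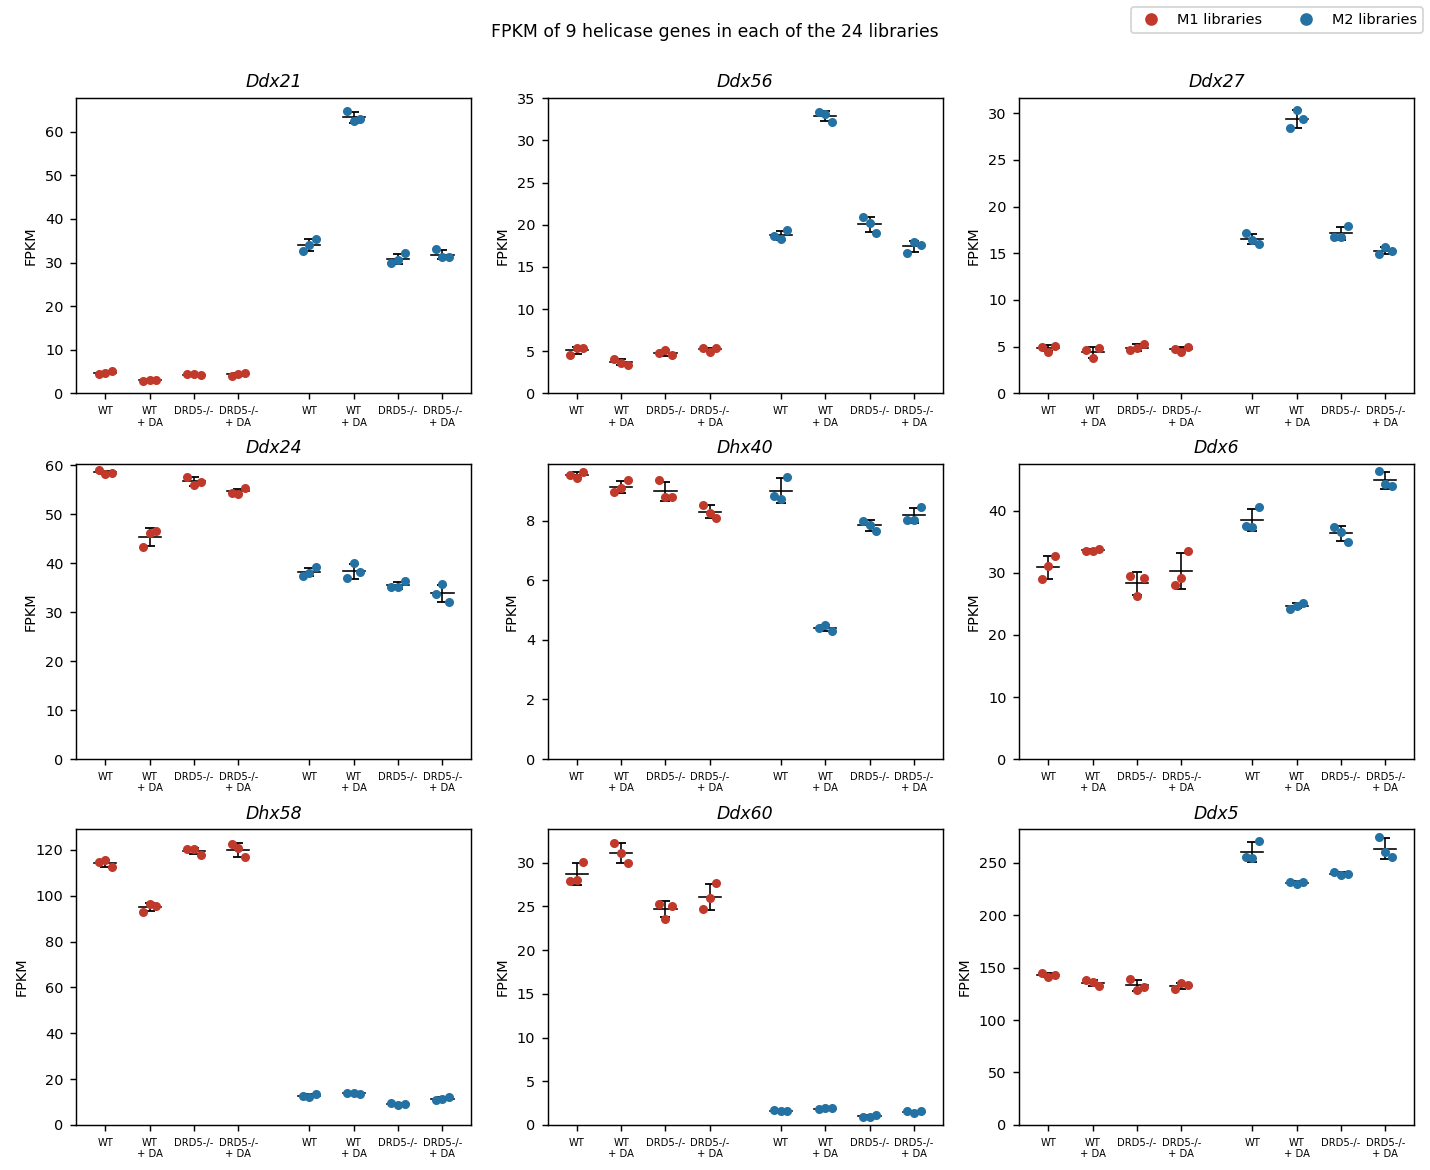
FPKM of 9 helicase genes in every library, with points for libraries, bars for the mean and error bars for the SD of 3 libraries. Ddx21, Ddx56 and Ddx27 were high in the 3 DA-treated WT M2 libraries, where Dhx40 and Ddx6 were low, and Ddx24 and Dhx58 were low in the 3 DA-treated WT M1 libraries.

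In DRD5-/- cells few helicase genes responded to DA. In M1 none of the 46 tested members passed (0.0% of all tested genes passed in either direction) by limma, and 4 had an unadjusted p under 0.05, as did 5.67% of all tested genes. In M2, 2 of 48 passed (4.17%, against 4.02% of all tested genes), both higher (against 3.37%), a share near that of all genes. None was lower (0.0%, against 0.652%), and 20 members had an unadjusted p under 0.05, as did 42.6% of all tested genes. Ddx6 had 37.4, 36.6 and 35.03 FPKM in untreated DRD5-/- libraries and 46.5, 44.3 and 44.0 FPKM with DA, so the 3 treated libraries were all higher. Its log2 change was 0.30 ± 0.037 (SE, n = 3 per group, limma adjusted p = 6.89e-05), opposite to the fall in WT. Dhx58 rose from 9.75, 8.74 and 9.25 FPKM to 10.8, 11.4 and 12.0 FPKM, with a log2 change of 0.28 that lost its call in 13 of 16 alternatives. These were either other scaling, no filter, no intensity trend, the compared groups alone, 1.5-fold, the replicate block and leaving out any 1 of the 6 libraries compared. Over all alternatives it ranged from 0.24 to 0.31 (limma adjusted p from 0.000919 to 0.00595, n = 3 per group, against 0.000947 in the fit described).

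The interaction test compared the effect of DA in WT with that in DRD5-/- cells. In M2, 21 of 48 members passed (43.8%, against 43.2% of all tested genes), a share near that of all genes, with 16 higher (33.3%, against 22.8%) and 5 lower (10.4%, against 20.4%). The median difference was 0.19 over the members and 0.01 over all tested genes, and the split was 16 and 5 with median-of-ratios scaling and 14 and 5 with quantile normalization. The largest positive differences in log2 change were those of Ddx56 (0.97 ± 0.056), Ddx27 (0.95 ± 0.055), Ddx39 (0.86 ± 0.070) and Ddx21 (0.83 ± 0.051), each ± SE. Ddx4 is set aside as above, and without it 15 differences were positive and 5 negative of 47 members. In DRD5-/- cells Ddx56 had 20.9, 20.2 and 19.0 FPKM untreated and 16.7, 18.0 and 17.6 FPKM with DA, and Ddx27 had 16.7, 16.7 and 17.9 FPKM and 14.96, 15.7 and 15.2 FPKM. For both genes the DA-treated DRD5-/- libraries lay below the untreated ones, where WT had risen. Ribosome biogenesis gave 9 of the positive differences, with a median of 0.38.

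The 5 negative differences in M2 were those of Dhx40 (−0.94 ± 0.060), Ddx6 (−0.92 ± 0.053), Ddx59 (−0.68 ± 0.11), Dhx34 (−0.53 ± 0.061) and Ddx5 (−0.31 ± 0.041). Dhx40 had 8.0, 7.85 and 7.66 FPKM in untreated and 8.03, 8.02 and 8.46 FPKM in DA-treated DRD5-/- libraries, all above the DA-treated WT libraries. Ddx5 had 255, 255 and 271 FPKM in untreated WT, 232, 229 and 232 FPKM in DA-treated WT, 242, 238 and 239 FPKM in untreated DRD5-/- and 274, 260.4 and 255 FPKM in DA-treated DRD5-/- libraries. It was lowest in the DA-treated WT libraries, which no other group reached, while DA-treated DRD5-/- and untreated WT overlapped.

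In M1 the interaction passed for 5 of 46 members (10.9%, against 8.38% of all tested genes), all lower (against 5.18%). None was higher by limma (0.0%, against 3.2%), and 21 had an unadjusted p under 0.05, as did 40.6% of all tested genes. These were Ddx21 (−0.50 ± 0.091), Ddx18 (−0.43 ± 0.080), Ddx54 (−0.39 ± 0.062), Ddx24 (−0.31 ± 0.043) and Dhx58 (−0.27 ± 0.037), each a difference in log2 change ± SE. None was called after median-of-ratios scaling and 1 after quantile normalization, while the share of higher genes among all calls went from 38.2% to 63.9% and 56.5%. A negative difference was found in 43 of 46 members and 65.1% of all tested genes, or in 37 and 40 of 46 members and 49.9% and 51.7% of all genes after the 2 scalings. Leaving out a single library gave 1 to 4 calls, with 1 without DA-treated WT replicate 1 or untreated WT replicate 2, 2 without untreated DRD5-/- replicate 2 or 3, and 3 without DA-treated WT replicate 2 or 3, untreated DRD5-/- replicate 1 or any DA-treated DRD5-/- library.

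**Figure D3:**
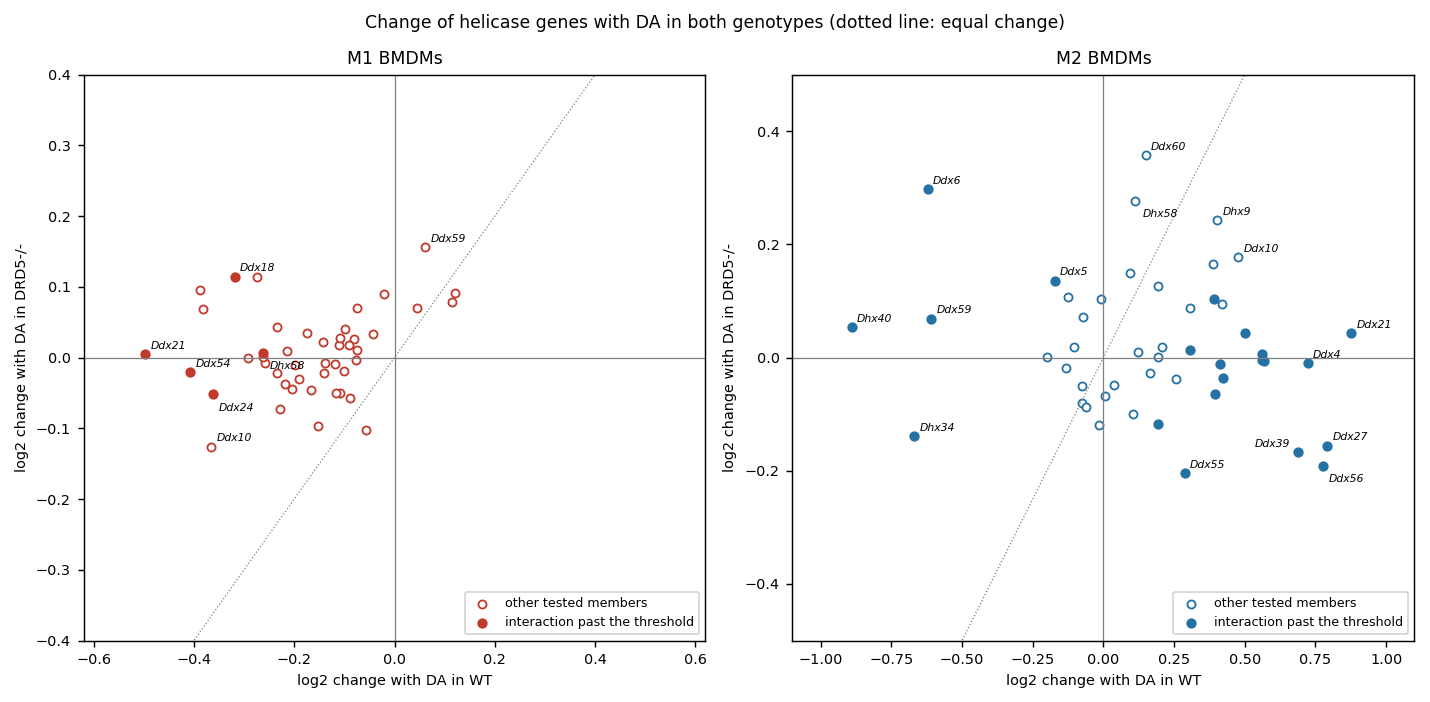
Log2 change of FPKM + 1 with DA in WT (horizontal) and in DRD5-/- cells (vertical) for each tested helicase gene in M1 and M2, each change from 3 against 3 libraries, with filled points for a difference past the threshold in the interaction test and a dotted line of equal change. In M2 21 genes passed (21 with median-of-ratios scaling and 19 with quantile normalization) and in M1 5 passed (0 and 1 with these scalings). The M2 counts include Ddx4, and without it 20 of 47 passed.

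Without DA the genotypes differed in few helicase genes. In M1 none of 46 passed (against 0.936% of all tested genes; 0.727% higher and 0.209% lower) by limma, and 8 had an unadjusted p under 0.05, as did 25.5% of all tested genes. In M2, 3 of 48 passed (6.25%, against 5.51% of all tested genes), all lower in DRD5-/- (against 4.15%), a share near that of all genes. None was higher by limma (0.0%, against 1.37%), and 24 had an unadjusted p under 0.05, as did 37.5% of all tested genes. The share of higher genes among all calls was 24.8%, and 40.1% and 35.7% after median-of-ratios scaling and quantile normalization.

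The 3 genes were the interferon-induced sensors Dhx58 and Ddx60 and the cofactor Dhx9. Dhx58, the LGP2 protein of the RIG-I family, had 12.5, 12.1 and 13.5 FPKM in untreated WT M2 libraries and 9.75, 8.74 and 9.25 FPKM in untreated DRD5-/- ones. Ddx60, an interferon-induced antiviral helicase, had 1.68, 1.55 and 1.53 FPKM and 0.93, 0.86 and 1.11 FPKM, and Dhx9 had 28.6, 29.0 and 29.9 FPKM and 24.5, 23.5 and 22.8 FPKM. The genotypes did not overlap in any of the 3 genes. Dhx58 differed by −0.42 ± 0.049 on the log2 scale (SE, n = 3 per group, limma adjusted p = 2.82e-05) and Dhx9 by −0.30 ± 0.034 (limma adjusted p = 2.21e-05), the latter under 1.2-fold after either other scaling. Ddx60 differed by −0.40 ± 0.066 (SE, n = 3 per group, limma adjusted p = 0.000518), or −0.67 with a pseudocount of 0.1. Its call was lost in 9 of 16 alternatives, which were quantile normalization, the compared groups alone, 1.5-fold, the replicate block, and leaving out untreated DRD5-/- replicate 1 or 2 or any untreated WT library. Over all alternatives the log2 difference ranged from −0.67 to −0.36 (limma adjusted p from 0.000192 to 0.00468, n = 3 per group). The fibroblast sums given above were also lower in untreated DRD5-/- than in untreated WT M2 libraries, and their part in these differences was not tested.

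Neither interferon-induced sensor was called with DA in WT M1 cells, and no test was made between them. Dhx58 had 114.5, 115 and 113 FPKM in untreated WT, 93.1, 96.2 and 95.6 FPKM with DA, 120.4, 120.4 and 118 FPKM in untreated DRD5-/- and 123, 121 and 117 FPKM in DA-treated DRD5-/- libraries. The DA-treated WT libraries were below all others. The log2 change in WT was −0.26 ± 0.026 (SE, n = 3 per group, limma adjusted p = 1.81e-06), short of 1.2-fold and so not called, and its interaction was called lower beside those of Ddx18, Ddx21, Ddx24 and Ddx54. Ddx60 had 27.9, 28.0 and 30.1 FPKM untreated and 32.2, 31.1 and 30.0 FPKM with DA in WT M1 cells, groups that overlapped, with a log2 change of 0.11. In M2 neither passed with DA in WT, with log2 changes of 0.11 for Dhx58 and 0.15 for Ddx60, and Ddx60 had 0.36 with DA in DRD5-/- cells (limma adjusted p = 0.00117, n = 3 per group, higher in all 3 treated libraries), not past the threshold.

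DA-treated WT and DA-treated DRD5-/- cells were also compared directly. This comparison shares its WT libraries with that of DA in WT, so its calls are not a separate line of evidence. In M2, 24 of 48 members passed (50.0%, against 49.7% of all tested genes), 20 higher in WT (41.7%, against 29.2%) and 4 lower (8.33%, against 20.4%), or 19 and 5 with median-of-ratios scaling and 18 and 7 with quantile normalization. Without Ddx4, which entered through its high group, 19 were higher and 4 lower of 47. The extremes among the others were Ddx21 (0.97), Ddx27 (0.90) and Ddx56 (0.88) on the one side and Ddx6 (−0.84) and Dhx40 (−0.77) on the other, as log2 differences. In M1, 11 of 46 passed (23.9%, against 18.5%), all lower in WT (against 12.6%). None was higher by limma (0.0%, against 5.95%), and 30 had an unadjusted p under 0.05, as did 56.6% of all tested genes. Ddx18 (−0.47), Ddx56 (−0.41) and Ddx21 (−0.40) had the lowest values, and Dhx58 had −0.34. With either other scaling 4 were lower and Ddx60 was higher, and the share of higher genes among all calls went from 32.1% to 52.5% and 49.8%. The count of 11 became 5 without DA-treated DRD5-/- replicate 1, 6 without DA-treated WT replicate 1 or 2 and 7 without DA-treated DRD5-/- replicate 2 or 3.

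Related gene lists outside the family were counted in the same comparisons, with no test between lists. Of all tested genes 25.9% rose and 20.4% fell with DA in WT M2 cells, and 4.73% rose and 9.6% fell in M1. Of 42 ribosome assembly factors outside the family, all 42 rose with DA in WT M2 cells, with a median log2 change of 0.91, from Nop10 (0.28) to Nop58 (1.64), a core protein of box C/D ribonucleoproteins, and 41 rose after either other scaling. In M1, 16 of the 37 tested fell and none rose, with a median of −0.29, from Noc2l (−0.63) to Rrs1 (−0.0021, not past the threshold), and 10 fell after either other scaling. The interaction in M2 passed for all 42, all higher (against 22.8% of all tested genes), and in M1 for 6 of 37, all lower (against 5.18%). Of 30 spliceosome proteins, 20 rose and 1 fell in M2 (median 0.39, from Syf2 at −0.37 to Snrpd1 at 1.06), and 10 fell in M1 (median −0.23, with Snrpd1 at −0.42 and Crnkl1 at −0.07), which became 2 and 3 with the 2 scalings.

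Of 15 mRNA export factors, 6 rose in M2 (against 25.9% of all tested genes) and 1 fell in M1 (against 9.6%), so the M1 count is not a result about the list. Alyref was the highest in M2 (0.88) and the 1 that fell in M1 (−0.40, lost with either other scaling), and the medians were 0.20 and −0.14. Thoc2 had −0.21 in M2 and 0.02 in M1, neither past the threshold. The 3 eIF4A genes, DEAD-box helicases of translation initiation and exon junctions that the naming rule leaves out, all rose in M2, with Eif4a1 highest (0.54) and Eif4a2 lowest (0.27), and 2 of the 3 rose after either other scaling. In M1 Eif4a3 (−0.33) and Eif4a1 (−0.31) fell and Eif4a2 had −0.12, with no call after median-of-ratios scaling and 1 after quantile normalization. Of 20 proliferation genes, 12 rose in M2 (median 0.73, from Ccnb1 at −0.16, not past the threshold, to Mcm5 at 2.46), and in M1 1 of the 16 tested rose, Pcna (0.30), with the lowest value in Aurkb (−0.40, not past the threshold).

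The 18 listed interferon-stimulated genes outside the family were counted in the same way, again with no test between lists. In untreated M2 cells 17 of 18 were lower in DRD5-/- than in WT, against 4.15% of all tested genes, with a median log2 difference of −0.77, beside the lower Dhx58 and Ddx60. With DA 14 of 18 rose in DRD5-/- M2 cells (median 0.40, against 3.37% of all tested genes), or 13 and 12 after the 2 scalings, and 8 fell in WT (against 20.4%; median −0.19, from Ifit1 at −0.64 to Oas1a at 0.19, not past the threshold). The interaction passed for 14, all lower (against 20.4%), while Dhx58 and Ddx60 had interaction differences of −0.16 and −0.21 that did not pass. In M1, 1 rose (Ifit3, 0.31) and 2 fell with DA in WT (lowest Usp18, −0.49), against 4.73% and 9.6% of all tested genes. These M1 counts are not a result about the list.

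**Figure D4:**
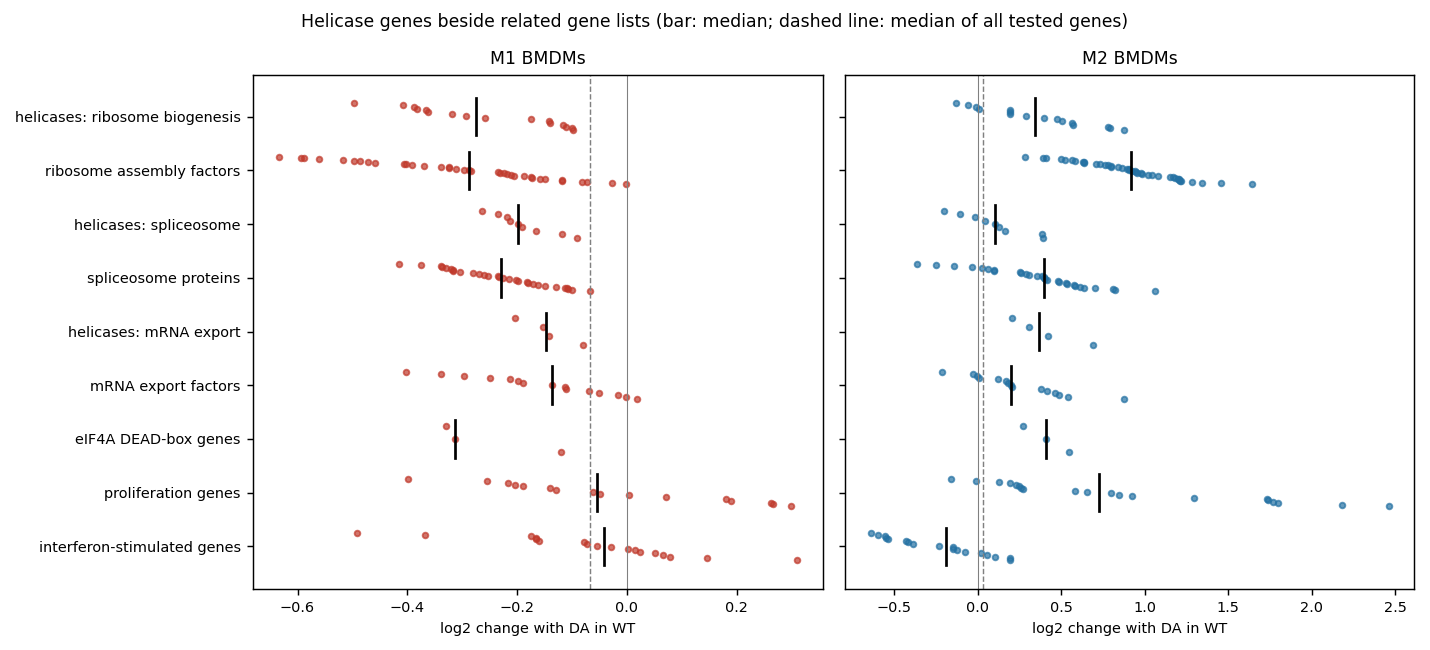
Log2 change of FPKM + 1 with DA in WT cells for helicases by role and for related gene lists in M1 and M2, with a point per tested gene, a bar at each list's median and a dashed line at the median of all tested genes. Ribosome biogenesis helicases had medians of −0.28 in M1 and 0.34 in M2 (−0.22 and 0.32 with median-of-ratios scaling, −0.22 and 0.29 with quantile normalization), and ribosome assembly factors −0.29 and 0.91.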

How the data were processed

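RNA-seq values were used as deposited, as FPKM per gene and library, in 24 libraries of 8 groups. Per the labels, the authors mapped reads with HISAT2 and normalized to FPKM, while their processing notes list Bowtie2 2.2.5 and build GRCm38.p6. Under each stimulus, genes that reached 1 FPKM in 3 or more of 12 libraries were fitted as log2(FPKM + 1) with limma 3.58.1 in R 4.3.3, with an intensity trend and 4 group means per stimulus. There were 5 comparisons per stimulus, and p-values were adjusted by Benjamini-Hochberg over all tested genes. Genes passed when the fold was 1.2 or more with adjusted p under 0.001. The fit was tested on simulated data, a check whose outcome is not given here and is not used. Each fit was repeated with quantile normalization, with median-of-ratios scaling, without the filter, with 0.1 as pseudocount, with a replicate block and without the trend. It was also repeated at an adjusted p under 0.05, with no minimum fold, at 1.5-fold, and without each library in turn. All comparisons but the interaction, which uses all 4 groups, were also repeated with only the compared groups. Named genes were the 10 largest changes with DA in WT per stimulus, calls in DRD5-/- comparisons, the 5 highest and 5 lowest called interactions, the 5 most abundant members, the extremes of each list, and Ddx60, Dhx58, Ddx39 and Ddx47. Others, such as Ddx46, Ddx49, Ddx55 and Ddx52, were named after their values were seen. Members and lists were chosen with earlier results of these data known. Other scripts used Python 3.11.15, numpy 2.4.6, pandas 2.3.3 and matplotlib 3.10.9.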

Additional observations from a re-analysis of the deposited data

Results flagged for a closer look

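The interaction test found that the effect of DA differed between WT and DRD5-/- cells for 26 combinations of helicase gene and stimulus. Each value is the log2 change with DA in WT minus that in DRD5-/- cells. In M1 all 5 were negative, with −0.50 for Ddx21, −0.43 for Ddx18, −0.39 for Ddx54, −0.31 for Ddx24 and −0.27 for Dhx58. None of these 5 was called after median-of-ratios scaling.

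In M2, 5 differences were negative and 16 positive. The negative ones were −0.94 for Dhx40, −0.92 for Ddx6, −0.68 for Ddx59, −0.53 for Dhx34 and −0.31 for Ddx5. Among ribosome biogenesis genes, the difference was 0.97 for Ddx56, 0.95 for Ddx27, 0.83 for Ddx21, 0.58 for Dhx37, 0.56 for Ddx18, 0.49 for Ddx55, 0.46 for Ddx49, 0.46 for Ddx31 and 0.31 for Ddx54. Export helicases had 0.86 for Ddx39 and 0.46 for Ddx39b. The remaining ones were 0.73 for Ddx4 (which passed the filter only through its high group), 0.56 for Ddx11, 0.43 for Ddx1, 0.29 for Dhx30 and 0.29 for Dhx15. The cause of these differences was not tested. The call was lost for Ddx54, Dhx15 and Dhx30 with quantile normalization and for Ddx31, Ddx55 and Dhx30 with no expression filter. It was lost for Ddx4 with a pseudocount of 0.1, and at 1.5-fold 8 genes passed in M2.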

How the results depend on the processing

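None of the 98 calls of helicase genes over all comparisons turned its direction in any of 1698 values under the alternatives. Many of these values could not turn. The log2 changes stay the same at other thresholds, without the filter or trend, with the replicate block and with the compared groups alone. Only the scalings, the other pseudocount and the left-out libraries could turn a direction. The log2 changes of Ddx17 (−0.043) and Dhx40 (−0.056) with DA in WT M1 cells, neither past the threshold, crossed 0 with either other scaling, up to 0.030 and 0.011. Of 928 values for 58 combinations of named gene and comparison, none of them an interaction or a comparison of DA-treated genotypes, 823 kept their side of the threshold, 93 fell short of it and 12 newly passed it. Of 170 alternative counts of called helicase genes, 115 were within 1.5 times the count reported.

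For DA in WT in M1, the count of 8 became 3 with no expression filter, 3 with median-of-ratios scaling, 3 with quantile normalization, 3 with the compared groups alone, 13 with no minimum fold and 0 at 1.5-fold. It ranged from 3 to 8 with single libraries left out, lowest without untreated WT replicate 2. The upper end does not mean that all 8 calls were kept, as newly called genes were counted too. Without untreated WT replicate 3, Ddx10, Ddx18, Ddx31 and Ddx56 lost their calls. For DA-treated WT against DA-treated DRD5-/- in M1, the count of 11 became 6 with no filter, 5 with either scaling, 7 with the compared groups alone, 0 at 1.5-fold and 5 to 8 with a library left out, lowest without DA-treated DRD5-/- replicate 1. The interaction count of 5 in M1 became 2 with no filter, 0 with median-of-ratios scaling, 1 with quantile normalization, 2 with no intensity trend, 10 at an adjusted p under 0.05, 0 at 1.5-fold and 1 to 4 with a library left out. The count stayed at 0 in M1 for DA in DRD5-/- and for the untreated genotypes.

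In M2 at 1.5-fold, DA in WT went from 24 to 9, DA-treated WT against DA-treated DRD5-/- from 24 to 9 and the interaction from 21 to 8. With single libraries left out they ranged from 22 to 24, from 23 to 26 and from 20 to 22. DA in DRD5-/- went from 2 to 1 with no filter, either scaling or the compared groups alone, to 0 at 1.5-fold and to 1 to 2 with a library left out. Untreated DRD5-/- against WT went from 3 to 1 with quantile normalization, to 0 at 1.5-fold and to 2 to 3 with a library left out. Where the stricter or looser threshold is not itself the difference, the cause was not tested.

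With a replicate block the M1 counts were 4 for DA in WT, 8 for DA-treated WT against DA-treated DRD5-/- and 3 for the interaction, and the M2 counts were 22 for DA in WT, 1 for DA in DRD5-/-, 2 for untreated DRD5-/- against WT, 24 for DA-treated WT against DA-treated DRD5-/- and 21 for the interaction. The residuals of libraries of like number had a mean correlation of −0.021 in M1 and −0.016 in M2. This cannot tell whether such libraries came from the same mice or cultures.

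The values are limited by FPKM without read counts, so no depth per gene can be given and low members such as Ddx4 or Ddx60 have unknown counting error. Groups had 3 libraries, of unknown origin in mice or cultures. Of the 8 M1 calls with DA in WT, 5 lie near the adjusted p limit and end with either other scaling, no filter or the compared groups alone. Ddx19a and Ddx19b cannot be separated with certainty.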

Other observations

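In M1 libraries, 8 genes of heart and lung, chosen after their values were seen, were near 0 in DRD5-/- cells and, apart from Sftpa1, not in WT cells. Their FPKM summed to 14.1 ± 2.24 in untreated WT, 13.4 ± 4.34 in DA-treated WT, 0.063 ± 0.029 in untreated DRD5-/- and 0.037 ± 0.040 in DA-treated DRD5-/- libraries (SD, n = 3). Myl2 of heart muscle was highest, at 4.48 FPKM in untreated WT, and the club cell gene Scgb1a1 was at 2.03 FPKM there. Sftpa1 was at most 0.05 FPKM in any M1 library. In M2 libraries the list summed to less than 1 FPKM in every library, at most 0.69. The part of these transcripts in the helicase comparisons between genotypes was not tested.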
